A study of Mus musculus with 14 samples.

Results

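V1 interneurons are inhibitory neurons of the ventral spinal cord that arise from progenitors dorsal to those of motoneurons, and they are recognised by a set of transcription factors. The members of this set that lie outside the Pax family are described here: the homeodomain genes En1 and Otp, the forkhead genes Foxp2, Foxp4 and Foxd3, and the LIM homeodomain genes Lhx1 and Lhx5. These 7 genes, chosen by name, were all found among the 23523 entries of the gene table, and all 7 passed the filter on low values in both tested comparisons. They were listed for a known place in V1 interneurons and not by a rule on their values. Earlier results of these data were known when they were chosen.

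Messenger RNA was measured in 13 libraries of mouse cells. One further sample, of floor plate, was not analysed here. Motoneurons of stage E12.5 embryos were GFP-positive cells of the Hb9::gfp reporter, with 2 libraries from embryos with the mutation labelled 218DKO, a double knockout of microRNA-218 (DKO), and 6 from wild-type embryos (WT). Both groups carried the same reporter. At the same stage, tdTomato-positive cells gave 1 wild-type library each of V1 interneurons (En1:cre), V2a interneurons (Chx10:cre) and V3 interneurons (Sim1:cre), in each case with the Rosa26:LSL:tdTomato reporter, which marks every cell in which the driver has ever been active. Differentiating mouse embryonic stem cells (mES) of day 4, treated with retinoic acid and a sonic hedgehog agonist, gave 1 library of tdTomato-positive motoneuron progenitors (Olig2:cre;Rosa26:LSL:tdTomato) and 1 of unsorted neural progenitors without a reporter. Because the En1 locus drove the Cre that selected the V1 cells, the height of En1 in the V1 library is a property of the sort and not a result.

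In the developing spinal cord, En1 marks postmitotic V1 interneurons, Otp and Foxd3 are expressed in V1 cells among other neurons, and Foxp2 marks a large V1 subclass. Foxp2 and Foxp4 are related repressors, Foxp4 is also expressed in neural progenitors, and their relative Foxp1 directs limb-innervating motoneurons. Lhx1 and Lhx5 are closely related and are expressed together in V1 and several dorsal interneuron types, and Lhx1 also marks the motoneurons that project to the dorsal limb. MicroRNAs lower the stability and translation of messengers whose 3′ untranslated regions (UTRs) pair with bases 2 to 8 of the microRNA, its seed.

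Foxp2 and Lhx1 are reported targets of microRNA-218, so the seed and the seed matches are shown here first. Both mouse genes, Mir218-1 (chr5:48223966-48223986, plus strand, GRCm38.p6, RefSeq) and Mir218-2 (chr11:35616840-35616860, plus strand), give the same mature 5p sequence, in which capitals mark the seed.
mmu-miR-218-5p: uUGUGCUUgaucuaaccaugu
The annotated 3′ UTRs (GENCODE M21, GRCm38) were searched on the transcribed strand for AAGCACAA (8mer), AAGCACA (7mer-m8, without the final A) and AGCACAA (7mer-A1), each gene counting once in its longest match. Of the 7 genes, 5 held 1 match each and none held an 8mer. The windows of 29 bases around the matches are given with the match in capitals.
Foxp2: attttaactgtAGCACAAacatctgttta
Foxp4: caagaccccttAGCACAAggggagacccg
Lhx1: gaataaattatAGCACAAatactgtaatg
Otp: gttcaaggtacAGCACAAtgctagggatt
Lhx5: gtcgagattccAAGCACAtcttagaagcc
The Foxp2 window lies at chr6:15440971-15440999 (plus strand), that of Foxp4 at chr17:47868308-47868336 (minus strand) and that of Lhx1 at chr11:84518351-84518379 (minus strand). The Otp window lies at chr13:94884209-94884237 and the Lhx5 window at chr5:120440501-120440529, both on the plus strand. Foxp2, Foxp4, Lhx1 and Otp held the 7mer-A1 form and Lhx5 the 7mer-m8 form. No match was found in the 3′ UTRs of En1 (803 bases) and Foxd3 (588 bases).

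Seed matches of this kind are common. Of 14712 tested genes with an annotated 3′ UTR, 19.9% held at least 1 of the 3 forms. Among genes with a 3′ UTR within 25% of the length of that of Foxp2 (3956 bases in its longest form) the share was 48.6%, and it was 21.6% at the length of Foxp4, 21.4% at that of Otp, 17.6% at that of Lhx1 and 13.3% at that of Lhx5. A match is a description of these letters and was not tested as a binding site. The Foxp2 match lay 2961 bases into the UTR of 2 deposited transcripts, NM_053242 and NM_212435, whereas the third, NM_001286607, has a separate 3′ UTR of 283 bases with no match.

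The deposited value is a signal per gene, scaled by transcript length and between libraries, so that levels can be set side by side across genes as well as libraries. From the steps between low values, the depth was approximately 7.32 M and 15.2 M reads in the DKO libraries, between 11.6 M and 28.1 M in the WT libraries, and between 16 M and 25.7 M in the interneuron and mES libraries. For a transcript 2000 bases long, a signal between 0.988 and 3.94 corresponded to 3 reads, depending on the library. Labels were checked with marker genes: Mnx1, the gene of Hb9, had a signal between 3863 and 4330 in DKO and between 2194 and 3995 in WT motoneurons, against at most 7.46 in the interneurons. Of 7 defining motoneuron markers summed, the V1 library had 51.6, V3 294 and V2a 1638, against between 13649 and 17253 in WT motoneurons. The V2a sum was mostly the cholinergic genes Slc18a3 (1202 in V2a, 1658 to 2720 in WT) and Chat (309 in V2a, 339 to 500 in WT), and the part of motoneurons in the V2a values below was not tested. The V1 library had 3864 of Pax2, a factor of inhibitory neurons, 2058 of Gad1, which makes GABA, and 1206 of Slc32a1, which loads it into vesicles. The V2a marker Shox2 reached 3975 in V2a. Sim1, the gene of the V3 driver, reached 808 in V3. The V3 marker Nkx2-2 had 2858 in V3, 2.75 in V1 and 14.3 in V2a. Another listed V3 marker, Nkx2-9, was low in V3 (2.75) and V1 (4.49). One listed V1 marker, Sp8, was lower in the V1 library (159) than in the V2a library (900). Transcripts of the host genes whose introns hold the microRNA did not overlap between the groups, with Slit3 between 3571 and 3845 in DKO and between 571 and 694 in WT motoneurons, and Slit2 between 3894 and 3929 in DKO and between 1344 and 2219 in WT. The microRNAs themselves were not analysed here, so the deletion was not checked directly.

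The WT libraries were not alike. WT replicates 2, 3 and 4 had between 10197 and 27943 of Rn45s, the precursor of ribosomal RNA, whereas replicates 1, 5 and 6 had between 644 and 4275. The DKO libraries had 1647 and 1112.5, within the range of WT replicates 1, 5 and 6. The V1 marker Pax2 had a signal of 130 in WT replicate 1 and 41.7 in replicate 5, between 14.6 and 20.6 in the other 4 WT libraries, 10.4 and 15.7 in the DKO libraries and 3864 in the V1 library. Results for the members are therefore also given for WT replicates 2, 3 and 4 alone and for 1, 5 and 6 alone where these change a call. In bulk samples, fewer cells of a type and less RNA per cell cannot be told apart.

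In the V1 library all 7 genes were strongly detected, with signals between 669 and 1929. Foxd3 (chr4:99656299-99658622) was the highest with 1929, followed by Otp (chr13:94875602-94885130) with 1915. Lhx5 (chr5:120431699-120441223) had 1184, Foxp4 (chr17:47867133-47924645) 1135 and Foxp2 (chr6:14901349-15441977) 1122. En1 (chr1:120602418-120607992), the gene of the driver, had 851 and Lhx1 (chr11:84518284-84525535) the least, 669. In V1 cells the genes thus lay less than 3-fold apart, whereas in the V3 library they ranged between 2.91 (Foxd3) and 1006 (Lhx1).

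**Figure D1:**
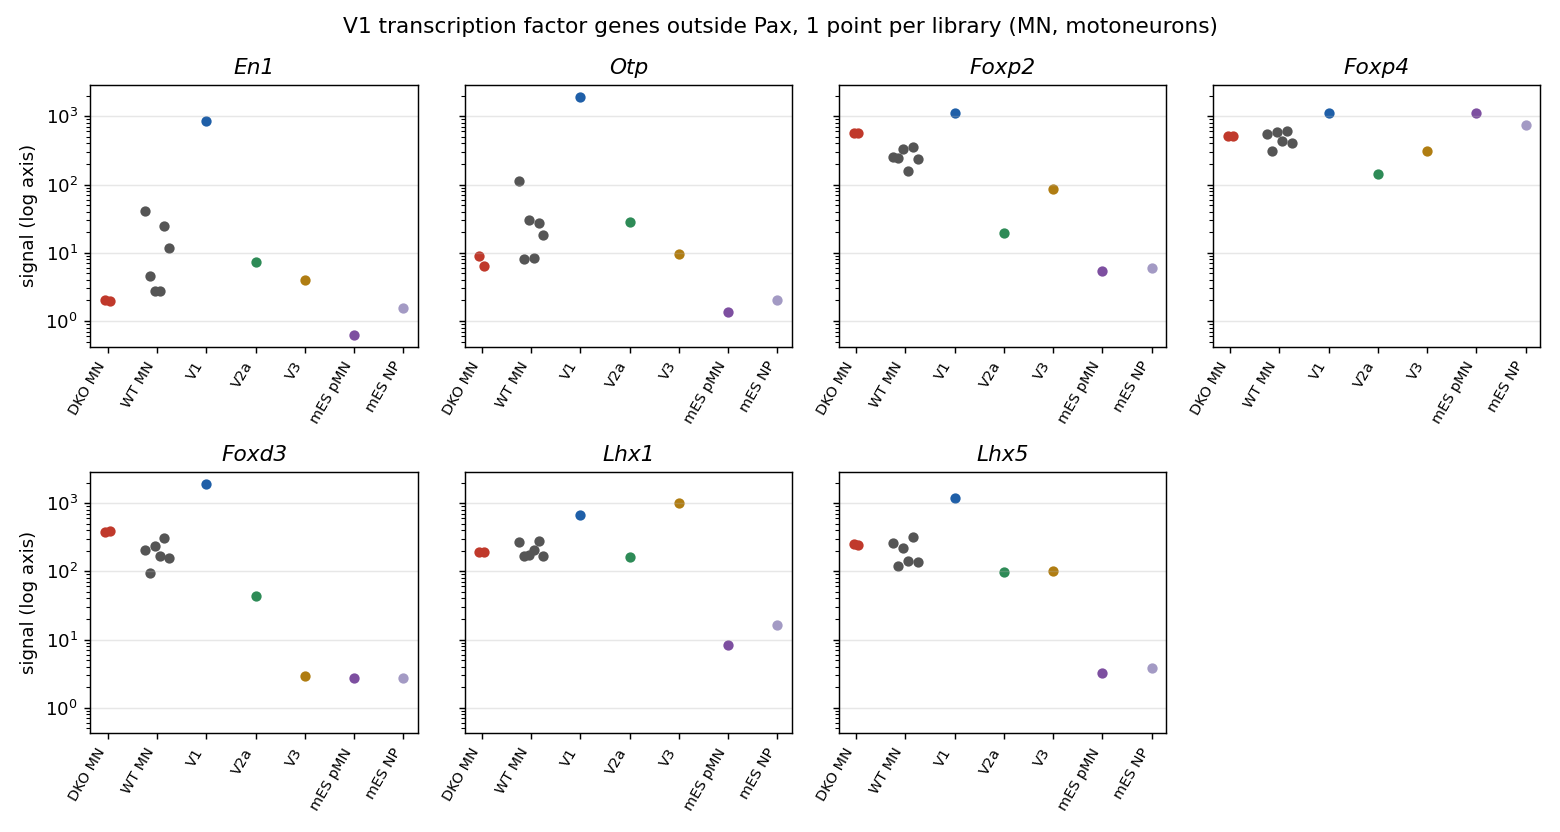
Signal of each of the 7 genes on a log axis, 1 point per library, for DKO motoneurons (2), WT motoneurons (6), V1, V2a and V3 interneurons and mES motoneuron (pMN) and neural (NP) progenitors (1 each). The V1 library is the highest for 6 genes, Lhx1 is highest in the V3 library at 1006, and Foxp4 alone stays high in both mES libraries.

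The question whether these factors separate V1 from other ventral interneurons was addressed by the V1, V2a and V3 libraries, which have no replicates and allow no test. Every log2 difference and every 2-fold limit below is on log2(signal + 1). Of the 7 genes, 6 were at least 2-fold higher in V1 than in both V2a and V3, as were 3.94% of 16587 genes. Lhx1 was the exception. En1 is among the 6, and its height in V1 is set by the sort. The size of the gap differed widely between the genes.

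Among the homeodomain genes, Otp had a signal of 1915 in V1, 28.5 in V2a and 9.73 in V3, which is 67.2 times the V2a and 197 times the V3 level. En1 had 851 in V1, against 7.23 in V2a and 4.05 in V3. Otp was therefore close to confined to the V1 library among the interneurons measured. The V1 level of En1 is set by the sort, so only its low V2a and V3 levels are described. At these depths 3 reads of En1 correspond to a signal between 0.753 and 3.0 depending on the library.

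Foxd3 showed the widest range of the 7 genes. Its signal was 1929 in V1, 43.0 in V2a and 2.91 in V3, so that V1 was 44.8 times V2a and 663 times V3. The V3 level corresponds to about 5.82 reads, so the ratio to it is imprecise. Foxp2 had 1122 in V1, 19.5 in V2a and 85.3 in V3, so here V3 was the higher of the other types and V1 exceeded it 13.1-fold. Foxp4 differed least among the forkhead genes, with 1135 in V1, 142 in V2a and 314 in V3, or 7.99-fold and 3.62-fold.

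The 2 LIM homeodomain genes separated in V3. Lhx5 had 1184 in V1, 97.7 in V2a and 102 in V3. Lhx1 had 669 in V1, 161 in V2a and 1006 in V3, so the V3 level was 1.51 times that of V1. The ratio of Lhx1 to Lhx5 signal was 0.565 in V1, 1.65 in V2a and 9.89 in V3. Lhx5 was thus the more abundant of the pair in V1, and Lhx1 in V2a and V3.

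**Figure D2:**
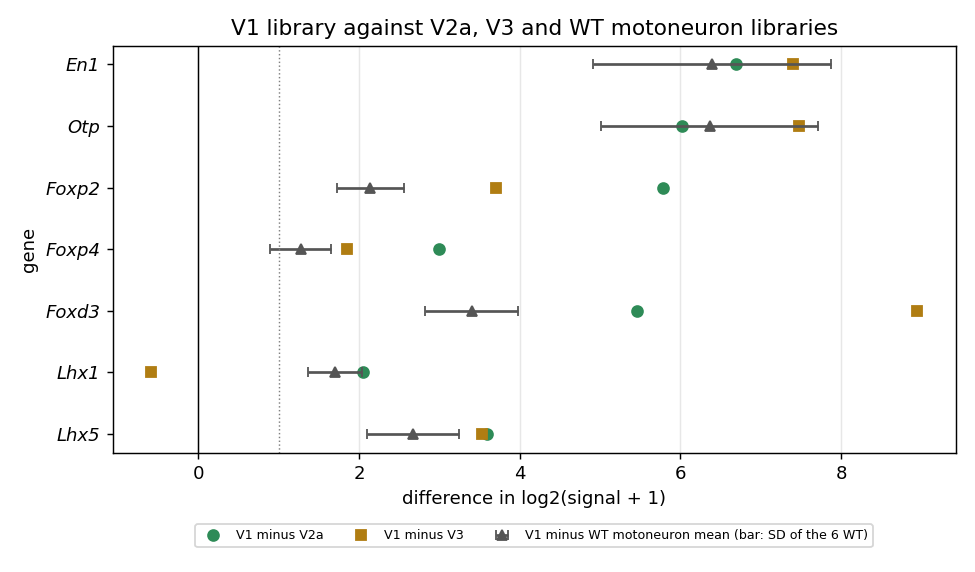
Difference in log2(signal + 1) between the V1 library and the V2a library (circles), the V3 library (squares) and the mean of the 6 WT motoneuron libraries (triangles, with the SD of the WT libraries as a bar). The dotted line marks a 2-fold difference, and only Lhx1 against V3 lies below 0, at -0.59.

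Other genes known from V1 interneurons give a measure of how common this pattern is. Of 24 such genes fixed as a list, 12 were at least 2-fold higher in V1 than in both V2a and V3, among them Pax2 (3864 in V1, 71.4 in V2a, 120 in V3), Pax8 (2315, 40.2 and 58.2) and Gad1 (2058, 33.6 and 34.9). The others included Prox1, with 206 in V1, 142 in V2a and 154 in V3, and Zfhx4, which was lower in V1 (491) than in V2a (1485) and V3 (1575). The list was chosen with earlier results of these libraries known.

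Set against WT motoneurons, the V1 library was higher for every member. All 7 genes were at least 2-fold above the WT mean on the log2 scale, against 11.6% of 16289 genes. All 7 also lay above the highest of the 6 WT libraries, against 31.1%. En1 is counted in both, although its height in V1 is set by the sort. The genes nevertheless fell into 2 kinds. En1 and Otp were low in WT motoneurons, with a median of 0.963% and 1.19% of the V1 level. The other 5 were expressed there at a median between 9.64% (Foxd3) and 42.9% (Foxp4) of the V1 level.

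En1 had a signal of 2.73, 8.20 and 40.8 (lowest, median and highest) in the 6 WT libraries and Otp 8.04, 22.8 and 111. WT replicate 1 was the highest for both. Gad1, which marks inhibitory neurons and not motoneurons, was also highest there, at 73.4, against 10.4 to 54.4 in the other WT libraries. WT replicate 5 was next highest for both En1 (24.7) and Gad1 (54.4), and Otp had 27.6 there against 30.0 in replicate 3. These values moved together, and the part that V1 cells in the sorted fraction had in them was not tested.

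**Figure D3:**
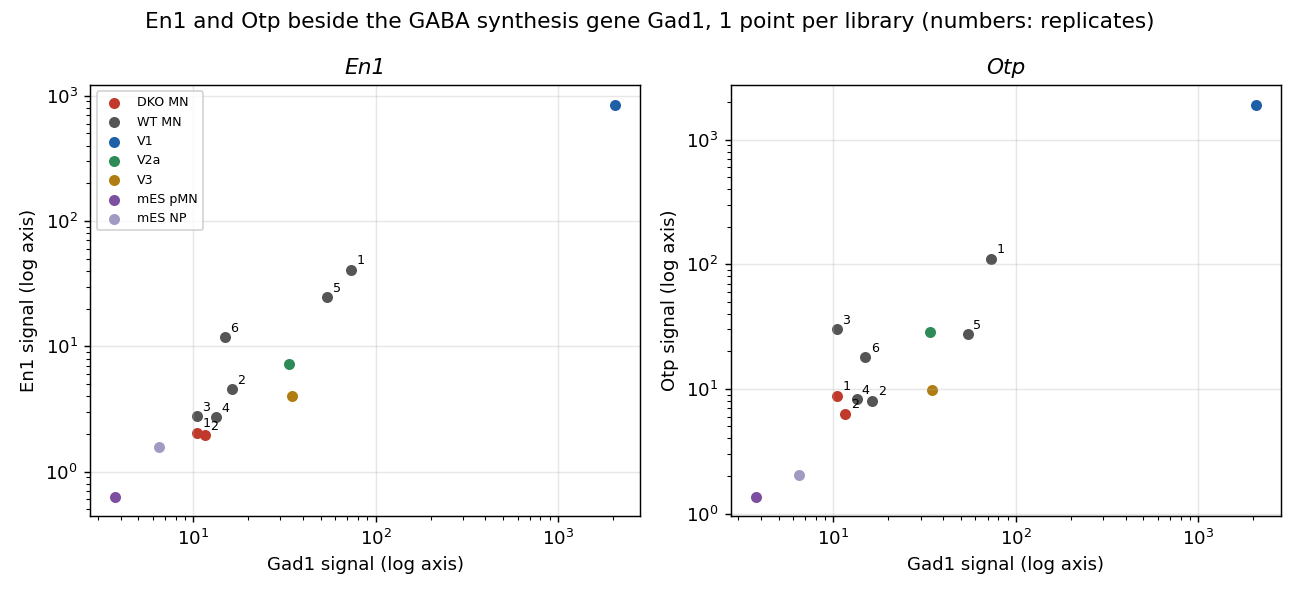
En1 (left) and Otp (right) against Gad1, 1 point per library on log axes, with replicate numbers beside the motoneuron libraries. WT replicate 1 has the highest En1 (40.8), Otp (111) and Gad1 (73.4) of the motoneuron libraries, and the V1 library lies far above at 851, 1915 and 2058.

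For the other 5 members, the lowest, median and highest WT signals show expression in every motoneuron library. Foxp4 had 312, 487 and 610, Foxp2 157, 247 and 354, and Foxd3 93.0, 186 and 304. Lhx1 had 167, 188 and 273, and Lhx5 118, 179 and 317. WT replicate 5 was the highest library for all 5 of these genes and replicate 2 the lowest for Foxp4, Foxd3 and Lhx5, so much of the WT spread was shared between the genes.

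When the V2a and V3 libraries were set against the 6 WT libraries, most members lay on the other side from V1 in V2a, but fewer did in V3. V2a lay below all 6 WT libraries for 5 of 7 genes, against 28.4% of genes, namely all but En1 and Otp, and above all of them for none, against 30.3%. V3 lay below all 6 for Foxp2, Foxd3 and Lhx5, against 29.2% of genes, and above all 6 for Lhx1, against 31.3%. It lay within the WT range for En1, Otp and Foxp4. The order of levels for Foxp2 was thus V1, DKO motoneurons, WT motoneurons, V3, V2a and the mES libraries. For Foxd3 it was V1, DKO and WT motoneurons, V2a, and then V3 and the mES libraries, which lay between 2.71 and 2.91 and could not be ordered. For Lhx1 it was V3, V1, the motoneurons with overlapping DKO and WT levels, V2a just below the WT range, and the mES libraries.

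Taking V1, V2a and V3 as 3 members of 1 class and testing them against the 6 WT libraries with limma gave no call among the 7 genes, while 32.9% of 16486 genes passed. Only Lhx1 had an unadjusted p under 0.05. It had 669, 161 and 1006 in V1, V2a and V3, against 167 to 273 in WT motoneurons, a log2 difference of 1.22 with an SE of 0.46 (limma with Benjamini-Hochberg adjustment, adjusted p = 0.0622). The adjusted p of Lhx1 was 0.0408 with every library scaled to the same total and 0.0464 with a fit on all 13 libraries. All 7 genes overlapped between the 2 classes, with the 3 interneuron types far apart, while 33.1% of all genes did not overlap (17.0% lower in the interneurons). The median log2 difference of the members was 0.30, against 0.04 over all genes tested.

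The class result rested on single libraries. Without the V1 library, Foxd3, Foxp2 and Foxp4 were called lower in V2a and V3 than in WT motoneurons, with log2 differences of -3.80 (SE 0.72, limma adjusted p = 0.00359), -2.60 (SE 0.46, adjusted p = 0.00236) and -1.15 (SE 0.31, adjusted p = 0.0200). Without the V2a library, Lhx1 was called higher, by 2.0 on the log2 scale (SE 0.24, limma adjusted p = 0.000581). These fits take different cell types, with 1 library each, as replicates of 1 class. Their p-values do not measure the spread within an interneuron type. For Foxp2, Foxp4 and Foxd3 the linear mean of the 3 interneuron libraries was above the WT mean while the log2 difference was negative, because the V1 value dominates a linear mean. Scaling to the same total shifted the median of all genes by 0.18 in this comparison and changed the split of calls over all genes to 3908 higher and 2014 lower, against 2498 higher and 2921 lower as deposited.

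DKO and WT motoneurons were compared to ask which members differ where microRNA-218 is lost. Foxp2 was higher in DKO motoneurons and was the only one of the 7 genes to pass the test. Foxd3 was higher in both DKO libraries than in every WT library without passing, En1 was lower in both, and Foxp4, Lhx1, Lhx5 and Otp overlapped between the groups. Over all 16260 genes tested, 7.99% passed (3.22% higher and 4.77% lower in DKO), so 1 member called is near what that share gives for 7 genes. The groups did not overlap for 3 members (2 higher, 1 lower), against 30.7% of all genes. The median log2 difference was 0.13 over the members and 0.0015 over all genes.

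Foxp2 had a signal of 575 in each DKO library, against a lowest, median and highest signal of 157, 247 and 354 in the WT libraries. Both DKO values lay above the highest WT value, and the groups did not overlap. The means were 575 ± 0.335 in DKO (SD, n = 2) and 262 ± 71.0 in WT (SD, n = 6), a log2 difference of 1.18 (SE 0.25, limma adjusted p = 0.0183), or 2.26-fold. With 2 libraries the DKO values give no usable estimate of their own spread, which the model takes largely from the WT libraries and from other genes. In percent of the V1 level, Foxp2 stood at 51.2% and 51.3% in DKO and between 14.0% and 31.5% in WT motoneurons.

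The Foxp2 call held without any single WT library, with limma adjusted p between 0.0130 and 0.0321. It was lost with 1 DKO library alone, at an adjusted p of 0.169 without DKO replicate 1 and 0.163 without DKO replicate 2, while the log2 difference stayed at 1.18 in both; the lone DKO library is then assumed to vary like the WT libraries. It was also lost with a constant variance prior (adjusted p = 0.0546). Nothing in the labels ties the replicates to separate animals, so the p-values cover the spread between these libraries, part of which may be technical.

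Foxd3 had 382 and 384 in the DKO libraries, against a lowest, median and highest signal of 93.0, 186 and 304 in WT. The DKO libraries lay above the whole WT range. The log2 difference was 1.07 (SE 0.34) and missed the threshold (limma adjusted p = 0.0740). It passed without WT replicate 2 (adjusted p = 0.0363), the lowest WT library, without WT replicate 5 (0.0368), the highest, and against WT replicates 2, 3 and 4 alone (0.0405), but not against 1, 5 and 6 alone (0.0605). The log2 difference was between 0.83 and 1.46 under all 19 alternatives. Foxd3 holds no seed match in its 3′ UTR.

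Foxd3 is also expressed in the neural crest, and 7 other markers of that lineage and of Schwann cells, summed, had 534 and 495 in DKO and between 209 and 488 in WT motoneurons. This sum was thus higher in both DKO libraries than in every WT library, as Foxd3 was. Most of it was Tfap2b, with 385 and 344 in DKO and between 123 and 290 in WT (log2 difference 0.90, SE 0.26, limma adjusted p = 0.0566), and Tfap2a, with 98.0 and 112 in DKO and between 46.6 and 116 in WT. Sox10, which defines the lineage, was 0 and 0.461 in DKO and between 0 and 4.87 in WT, where replicate 1 was highest. Ednrb and Erbb3, also on the list, went the other way from the sum, with both DKO libraries below every WT library. Ednrb was at most 5.703 in DKO and at least 6.26 in WT (log2 difference -1.57, SE 0.63, limma adjusted p = 0.144). Erbb3 was at most 1.24 in DKO and at least 1.77 in WT (log2 difference -1.18, SE 0.45, limma adjusted p = 0.128). None of the 7 genes tested from the whole list, Foxd3 included, was called (4 had an unadjusted p under 0.05), against 7.99% of all genes. The part of such cells in the Foxd3 values was not tested.

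En1 had 2.05 and 1.96 in the DKO libraries, against 2.73, 8.20 and 40.8 (lowest, median and highest) in WT. The DKO libraries lay just below the lowest WT library, at about 2.04 and 4.06 reads. The log2 difference was -1.76 (SE 0.87, limma adjusted p = 0.225). Against WT replicates 1, 5 and 6 alone it was -3.0 (adjusted p = 0.0134), and against 2, 3 and 4 alone -0.51 (adjusted p = 0.496), so the value depended on which WT libraries were used. Of the markers of inhibitory neurons, Gad1 had 10.5 and 11.6 in DKO and between 10.4 and 73.4 in WT, Slc32a1 4.90 and 5.59 in DKO and between 4.14 and 69.7 in WT, and Pax2 10.4 and 15.7 in DKO and between 14.6 and 130 in WT. Gad2 went the other way, with 24.2 and 27.9 in DKO and a WT median of 13.5 (6.44 to 52.5). Their part in the En1 values was not tested.

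Otp behaved much like En1. It had 8.84 and 6.34 in DKO, against 8.04, 22.8 and 111 in WT, and the groups overlapped. The log2 difference was -1.45 (SE 0.78, limma adjusted p = 0.264), or -1.0 (adjusted p = 0.245) without WT replicate 1. Otp holds a 7mer-A1 match, and its values gave no call in either direction.

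Lhx5 had 249 and 247 in DKO, against 118, 179 and 317 in WT, with a log2 difference of 0.42 (SE 0.33, limma adjusted p = 0.447). Foxp4 had 515 and 514 in DKO, against 312, 487 and 610 in WT, a difference of 0.13 (SE 0.23, adjusted p = 0.754). Both DKO libraries lay inside the WT range for either gene. Lhx1, the other reported target, had 191 and 194 in DKO, against 167, 188 and 273 in WT. Its log2 difference was -0.09 (SE 0.21, limma adjusted p = 0.826), and its sign turned positive when every library was scaled to the same total (0.01) or WT replicates 2, 3 and 4 alone were used (0.09). Each of these 3 genes carries a seed match, and their differences were within the spread between WT libraries.

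**Figure D4:**
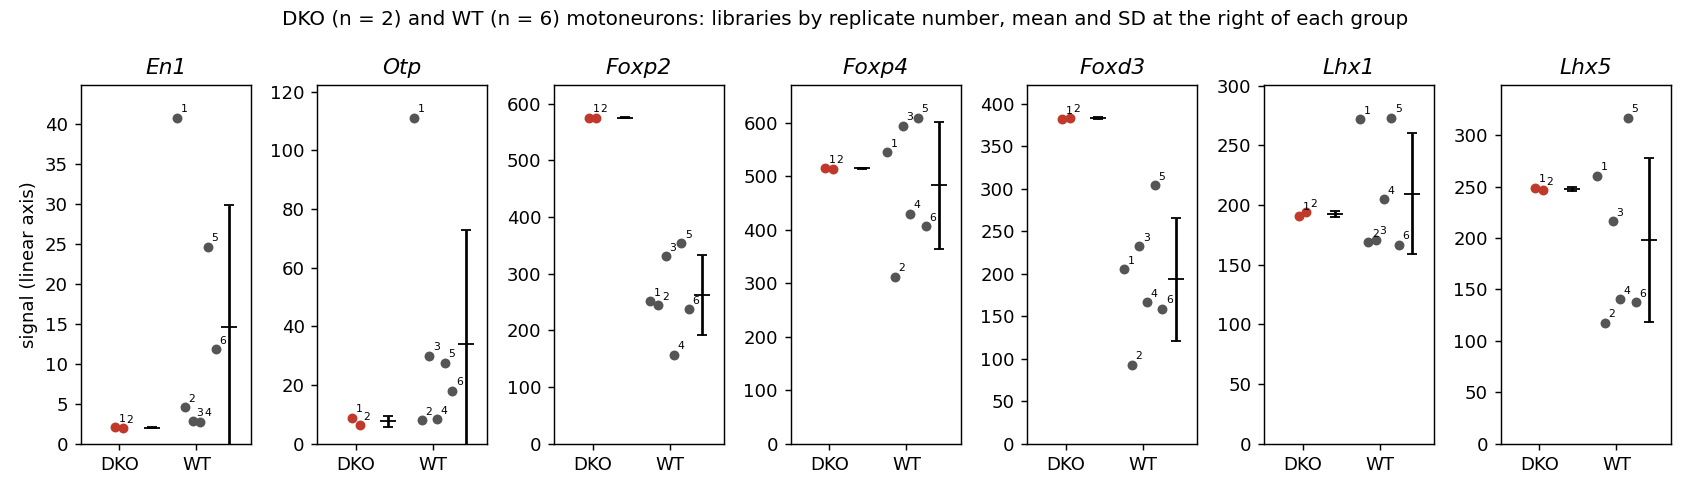
Signal of each gene on linear axes in DKO (2, left) and WT (6, right) motoneuron libraries, numbered by replicate, with the mean and SD beside each group, and SD bars cut at 0 for En1 and Otp. Foxp2 and Foxd3 in DKO lie above all WT libraries, En1 lies below all, and the other 4 genes overlap.

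Ratios between related genes shifted with Foxp2. The ratio of Foxp2 to Foxp4 signal was 1.12 in both DKO libraries, between 0.365 and 0.782 in WT, 0.989 in V1, 0.137 in V2a and 0.272 in V3. That of Foxp2 to Foxp1 was 0.705 and 0.795 in DKO, between 0.118 and 0.318 in WT and 2.04 in V1. Foxp1 itself had 816 and 723 in DKO and between 788 and 1439 in WT, a log2 difference of -0.59 (SE 0.20, limma adjusted p = 0.0899). The ratio of Lhx1 to Lhx5 was 0.766 and 0.787 in DKO, just below the WT range of 0.789 to 1.46. In the DKO libraries Foxp2 was thus the more abundant of the pair with Foxp4, as in no WT library.

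The deposited transcripts show which Foxp2 messengers the reads were assigned to. NM_212435, which holds the seed match, had 262 and 428 in DKO and between 132 and 273 in WT, or between 45.6% and 74.4% of the gene in DKO and between 66.9% and 83.9% in WT. NM_053242, which shares the match, had 80.4 and 51.2 in DKO and between 17.7 and 62.5 in WT. NM_001286607, which lacks it, had 233 and 96.3 in DKO and between 0 and 59.7 in WT. Both DKO libraries were thus above all WT libraries for the transcript without the match, and overlapped with them for the 2 with it.

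None of the 3 transcripts passed the test over all 21820 transcripts. The log2 differences were 0.82 for NM_212435 (SE 0.29, limma adjusted p = 0.170), 1.02 for NM_053242 (SE 0.44, adjusted p = 0.243) and 2.83 for NM_001286607 (SE 1.42, adjusted p = 0.304). The split of reads between transcripts that share most exons is an estimate by the authors, and the 2 DKO libraries gave NM_001286607 shares as far apart as 40.5% and 16.7%. For Foxp4, whose 3 transcripts all hold the match, NM_028767 had 204 and 161 in DKO and between 110 and 195 in WT and was listed at 0 in V2a.

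**Figure D5:**
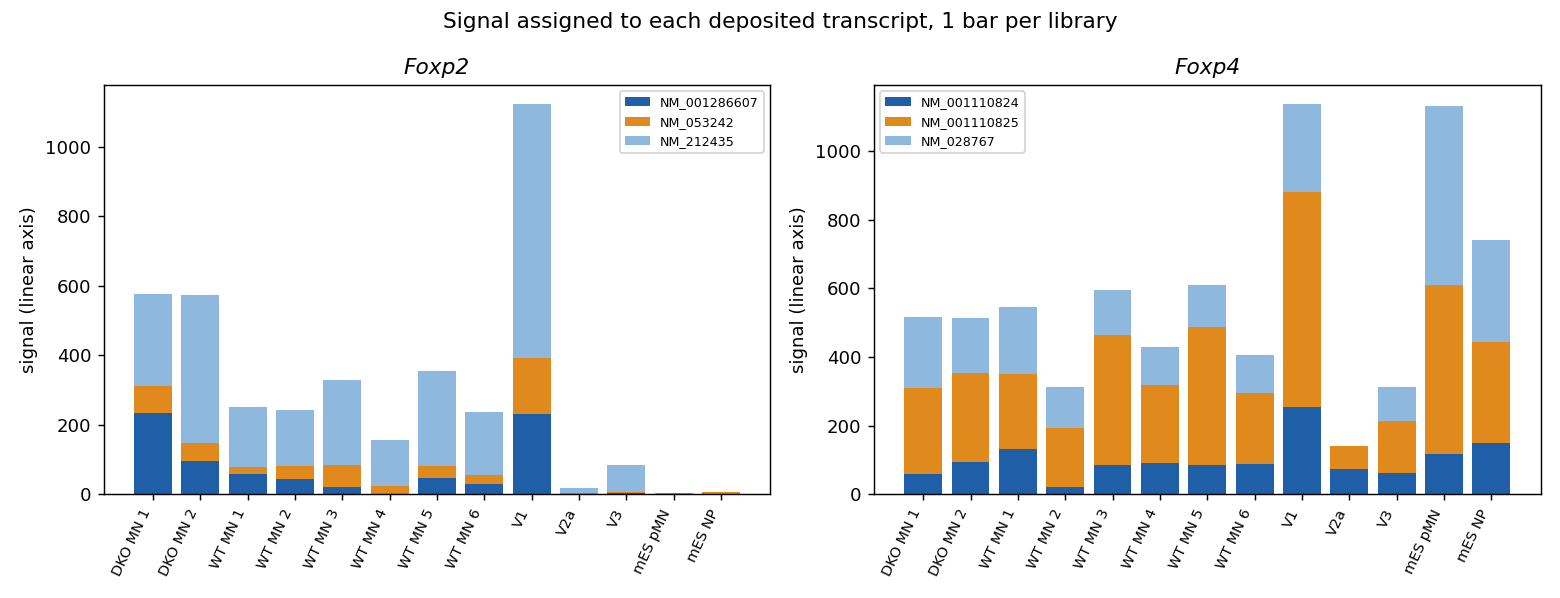
Signal assigned to each deposited transcript of Foxp2 (left) and Foxp4 (right), stacked in 1 bar per library on linear axes. Foxp2 bars reach 575 in both DKO libraries and at most 354 in WT, and the NM_001286607 segment is 233 and 96.3 in DKO and at most 59.7 in WT.

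In the mES libraries 6 of the 7 genes were low. Lhx1 had 8.22 in motoneuron progenitors and 16.4 in neural progenitors, Foxp2 5.36 and 5.89, Lhx5 3.24 and 3.82, Foxd3 2.72 and 2.71, Otp 1.37 and 2.04, and En1 0.632 and 1.58. Both mES libraries lay below all 6 WT motoneuron libraries for these 6 genes, against 29.9% of all genes. Foxp4 was the exception, with 1130 in motoneuron progenitors and 740 in neural progenitors, above all 6 WT libraries (36.2% of genes) and, in the motoneuron progenitors, at 99.6% of the V1 level. Olig2, the gene of the driver, had 1495 in motoneuron progenitors and 191 in neural progenitors. Of 8 pluripotency genes summed, motoneuron progenitors had 11216 and neural progenitors 9206, against at most 510 in the embryonic libraries. Most of the sum was Dppa5a (8722 and 5817), and Pou5f1 had 731 and 956. The part of pluripotent cells in the mES values was not tested.

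Between the 2 mES libraries no member differed 2-fold on the log2(signal + 1) scale, where 8.32% of genes were at least 2-fold higher and 16.7% at least 2-fold lower in motoneuron progenitors. The largest differences were -0.92 for Lhx1, -0.66 for En1 and 0.61 for Foxp4. The En1 values correspond to about 2.04 reads in motoneuron progenitors and 5.10 in neural progenitors. There is 1 library of each kind, and no test was possible.

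The members did not follow a single pattern across libraries. Over the 13 libraries, on log2(signal + 1), Pearson's r was 0.950 between En1 and Otp, 0.927 between Foxp2 and Lhx5, 0.890 between Foxp2 and Foxd3 and 0.876 between Lhx1 and Lhx5. Foxp4 had r between -0.334 (with Lhx1) and 0.240 (with En1) with the other members. These values are descriptions, since 8 of the 13 libraries are motoneurons and 5 cell types have 1 library each.

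Among 12831 genes, those most like each member by this measure were named. En1 was most like Gad1 (r = 0.966), Otp, Slc6a5, Slc32a1 and Pax8, and Otp was most like En1, Pax8, Gad1, Slc32a1 and Slc6a5, so the 2 shared the same inhibitory transmitter genes and Pax8. Foxp2 was most like the kainate receptor gene Grik3 (r = 0.982; mean 462 in DKO and 244 in WT), followed by Sstr1, Trpc4, Sfrp4 and Kctd12. Foxd3 was most like the potassium channel gene Kcna1 (r = 0.983), followed by Pdzrn4, Ccdc106, Kcnk9 and Chrm3. Lhx5 was most like the calcium channel gene Cacna2d2 (r = 0.987), followed by Enc1, Ppp1r26, Cdh18 and Hdac11.

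Lhx1 was most like Lhx1os (r = 0.981), followed by Fam13a, Cbfa2t3, Rapgef5 and Kcnh7. Lhx1os is a noncoding gene beside Lhx1 on the opposite strand, with 830 in V1, 169 in V2a and 1226 in V3. The library kit does not mark strand, so reads of the 2 genes could be told apart only by position. Foxp4 had the weakest likeness, with Fam43a (r = 0.878), Bcl2l11, Zcchc2, Pwwp2b and Slc15a4.

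Genes that work beside the members were compared in the same fits. Of the 24 other V1 genes, 2 were called higher in DKO motoneurons and none lower (median log2 difference 0.06, against 0.0015 over all genes). Over all genes 7.99% were called, 3.22% higher and 4.77% lower. Lmo3, a LIM-only protein of the kind that binds the cofactors of LIM factors, had 461 and 473 in DKO and between 157 and 297 in WT, a log2 difference of 1.08 (SE 0.19, limma adjusted p = 0.00995). Nr4a2, an orphan nuclear receptor gene, had 1285 and 1420 in DKO and between 446 and 1105 in WT, a difference of 1.03 (SE 0.28, adjusted p = 0.0487). The inhibitory transmitter genes of the list gave no call.

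In the interneuron class, 13 of the 24 genes were called higher than in WT motoneurons and 2 lower (median 1.35, against 0.04). Over all genes 15.2% were called higher and 17.7% lower. Prox1 (mean 167 in the interneurons, 34.3 in WT), Zfhx4 (1184 and 125), St18 (356 and 145) and Onecut2 (355 and 130) had the lowest adjusted p among the higher genes, between 7.13e-05 and 0.00326 (limma). Foxp1 was called lower, with a mean of 263 in the interneurons and 1176 in WT (log2 difference -2.54, SE 0.42, limma adjusted p = 0.00153).

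Among 10 LIM cofactor genes, which link LIM homeodomain proteins such as Lhx1 and Lhx5 into complexes, Lmo3 and Ssbp2 (282 in DKO and 208 in WT on average, limma adjusted p = 0.0441) were called higher in DKO motoneurons and none lower. Over all genes 3.22% were called higher in DKO. In the interneuron class 4 of the cofactor genes were higher and 4 lower, against 15.2% and 17.7% of all genes. Among 16 paralogs of the members, 10 could be tested in DKO motoneurons and 1 was called, Lhx3, near the 7.99% called over all genes. Lhx3 had 470 and 388 in DKO and between 503 and 923 in WT (log2 difference -0.79, SE 0.20, limma adjusted p = 0.0350). En2, the paralog of En1, was at most 0.738 in every embryonic library. Among 15 genes of other spinal populations that express Lhx1 or Lhx5, none of the 13 tested was called in DKO motoneurons with limma, against 7.99% of all genes. Of the 13, 4 had an unadjusted p under 0.05, as had 4286 of all 16260 genes. In the interneuron class 5 of the 15 were higher and 1, Pou4f1, was lower, against 15.2% and 17.7% of all genes.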

How the data were processed

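The authors deposited 1 gene table and 1 transcript table of signal values on RefSeq models, per the file headers. The signal was not a count and was taken as scaled by transcript length and between libraries. Scaling between libraries was read from the upper quartile of the signal, lowest in V3 (227.5) and highest in DKO replicate 2 (233.7). Length scaling was read from low values of single-transcript genes, multiplied by transcript length. Of these, 78.5% to 79.8% lay within 0.1 of whole multiples of 1 value per library. Depths are therefore approximate. The submitters' processing notes name DESeq, bedtools, mm9 and mm10; the aligner is not given in the sources used here. Because the values were not counts, the test planned for normalized values was used: limma 3.58.1 (R 4.3.3) with a trended prior on log2(signal + 1), which understates changes of low genes, keeping genes whose mean signal reached 1, two-sided, Benjamini-Hochberg over all genes, threshold 0.05. In simulations of the DKO design, 44% of changes of 1 log2 unit and 84% of 2 units were recovered among 15999 genes. In the interneuron design the shares were 66% and 93% among 16031. Every simulated library varied like the WT libraries, and only genes above a low WT level were changed. V1, V2a and V3 were shifted by the same amount. For the members the interneuron types lay far apart, so these shares do not describe the power for them in that class.

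Fold limits without replicates were 2-fold. No 2 replicates agreed within sampling noise (chi-square per degree of freedom of at least 3.93). All 7 members were named, plus the first 3 genes of each defining marker list, En2, Foxp1, Slit2, Slit3, up to 4 called genes of lowest adjusted p per list and comparison, and the 5 genes most correlated with each member. Rn45s, Sp8, Sox10, Tfap2a, Tfap2b, Ednrb, Erbb3, Gad2, Slc18a3, Chat, Pax8, Sim1 and Lhx1os were named for what they show of libraries or neighbours, after their values were seen. Members and lists were chosen with earlier results of these data known. Alternatives were other pseudocounts, filters, scalings, priors, sets of libraries and the transcript table. Some listed genes are not reported here. Sequences came from RefSeq and GENCODE M21.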

Additional observations from a re-analysis of the deposited data

Results flagged for a closer look

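Otp in WT motoneuron replicate 1, with a signal of 111, stood apart from the other 5 WT libraries (8.04 to 30.0): its gap to the next library was 0.787 of the whole WT range, against a critical value of 0.625 for 6 libraries. This ratio was taken on the linear signal and not on log2(signal + 1), where gaps between high values are smaller. The highest and lowest WT library of each of the 7 genes were looked at in this way, and chance flags about 1 in 20 groups. Gad1 (73.4) and Pax2 (130) were also highest in this library, and their part in the Otp value was not tested.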

How the results depend on the processing

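In DKO against WT motoneurons, 1 member was called (Foxp2). There were 0 with a constant variance prior and 0 with the transcript table. There were 2 with WT replicates 2, 3 and 4 alone (Foxp2, Foxd3), 2 with WT replicates 1, 5 and 6 alone (Foxp2, En1) and 2 with the replicate block (Foxp2, Foxd3). Leaving out 1 library gave 0 to 2. Deviations of DKO and WT libraries with the same number had correlations of -0.06 and -0.01. The deviations of 2 DKO libraries from their own mean mirror each other, so this cannot show whether the numbers pair the libraries. Over all genes the block gave 120 higher and 94 lower calls, against 523 and 776. Scaled to the same total, 656 were higher and 598 lower. Lhx1 reversed to 0.0083 with the same total and 0.089 with WT replicates 2, 3 and 4 alone.

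In the interneuron class no member was called, 1 with the same total and 1 with a fit on all 13 libraries (both Lhx1), and 0 to 3 leaving out 1 library. Leaving out 1 library, the log2 differences ranged from -0.65 to 3.05 for En1, -0.39 to 3.35 for Otp, -3.80 to 0.68 for Foxd3, -0.89 to 0.90 for Lhx5, -2.60 to 0.29 for Foxp2 and -1.15 to 0.34 for Foxp4. The sign of En1, Otp and Lhx5 reversed without V1, that of Foxp2 and Foxp4 without V2a and that of Foxd3 without V3. In the mES libraries 0 members differed 2-fold, 1 with a pseudocount of 0.1 (En1) and 1 with the same total (Lhx1). The cause of these shifts was not tested. The counts of 6 members 2-fold higher in V1 than in V2a and V3, and of 7 against WT, were the same under every alternative run for them. Both counts include En1, the gene of the V1 driver. Depth limits En1 in the DKO libraries and En1, Otp, Foxd3 and Lhx5 in the mES libraries, where signals are near the level of a few reads.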
